A study of Homo sapiens with 4 samples.

Results

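A set of 10 transcription factor genes that set or hold cell lineage and stemness were followed in H1299 cells with and without an edited TTC28 gene. They are GATA6, GATA2, SOX2, SOX4, SOX9, FOXA2, KLF4, KLF5, SALL3 and SALL4, taken by gene name, 10 of the 58735 genes in the expression table. H1299 is an established human non-small cell lung cancer line. RNA-seq was made from 2 libraries of TTC28-KO cells, in which the TTC28 gene had been targeted by CRISPR/Cas9, and from 2 libraries of WT cells. All 4 came from untreated cells grown under 1 protocol. The labels do not say whether the knockout cells are a single clone or a pool, where TTC28 was cut, or whether the libraries of a group came from separate cultures. P-values therefore measure the spread between these libraries, which may be technical.

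The TTC28-KO libraries held 28885443 and 25120500 counts, and the WT libraries 25808423 and 27043491. Levels are in FPKM, reads per length of gene and per library size, so that levels of different genes can be set side by side. Each library holds bulk RNA, in which fewer cells expressing a gene and less RNA per cell cannot be told apart. TTC28 itself, on chromosome 22, had 2.96 and 2.99 FPKM in the TTC28-KO libraries, against 4.88 and 5.44 FPKM in the WT libraries, so that 57.7% of its WT level remained as RNA (log2 fold change −0.79 ± 0.0764 SE; edgeR quasi-likelihood, adjusted p = 2.78e-06). Mitochondrially encoded genes took 8.61% and 10.2% of the counts in TTC28-KO, against 6.07% and 5.87% in WT. With these genes left out of the library totals, the same number of the 10 factors was called higher and lower. The lung label was checked on 20 lung epithelial genes, of which 4 passed the filter on low values given below. These were ETV5, ABCA3, LAMP3 and AGER. In WT, ETV5 had 17.5 and 18.9 FPKM and ABCA3 12.9 and 13.8 FPKM, while LAMP3 had 2.96 and 2.94 FPKM and AGER 3.0 and 2.62 FPKM. SFTPA1, SFTPA2 and SFTPC, the surfactant genes of alveolar cells, had no count in any library, and the lung lineage factor NKX2-1 had 5 and 1 counts in TTC28-KO and 1 and 4 counts in WT.

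GATA factors are zinc finger proteins that bind GATA motifs. GATA6 directs endoderm and lung development, and GATA2 blood progenitors. SOX proteins bind and bend DNA through an HMG box, FOXA2 is a forkhead factor that opens closed chromatin in endoderm, and KLF proteins bind GC-rich and CACCC sequences through zinc fingers. SALL3 and SALL4 are zinc finger proteins related to Drosophila spalt, and SALL proteins recruit the NuRD deacetylase complex. SOX2 and KLF4 are best known from the reprogramming of adult cells to pluripotency.

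Sequences upstream of the start site are shown for SALL3, which had the largest rise, for SOX2, 1 of the 2 factors nearly without counts in TTC28-KO, and for KLF4 and KLF5, related factors that moved in opposite directions. They come from RefSeq on GRCh38.p14, whose promoter table held 7 of the 10 factors. Each is read 5′ to 3′ on the gene's strand. Capitals mark matches, on either strand, to 6 motifs. These were the GC box with the letters GGGCGG, the TATA box with TATAAA, a SOX core with ACAAT, the motif of the zinc finger factors around GATA6 with AGATAA, a forkhead motif with GTAAACA and a KLF element with CCACCC. The SALL3 stretch is chr18:78979568-78979817 (plus strand), the SOX2 stretch chr3:181711675-181711923 (plus strand), the KLF4 stretch chr9:107489770-107490019 (minus strand) and the KLF5 stretch chr13:73054726-73054975 (plus strand, the first of 2 starts). None holds an exon base of GENCODE release 29. The KLF4 stretch precedes the RefSeq start but lies inside the longer KLF4 gene of that release, chr9:107484852-107490482.
SALL3: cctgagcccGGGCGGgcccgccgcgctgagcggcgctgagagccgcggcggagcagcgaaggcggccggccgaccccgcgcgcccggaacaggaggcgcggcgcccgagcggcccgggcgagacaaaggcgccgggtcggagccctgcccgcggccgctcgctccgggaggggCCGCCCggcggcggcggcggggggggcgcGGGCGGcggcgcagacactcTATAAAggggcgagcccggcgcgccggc
SOX2: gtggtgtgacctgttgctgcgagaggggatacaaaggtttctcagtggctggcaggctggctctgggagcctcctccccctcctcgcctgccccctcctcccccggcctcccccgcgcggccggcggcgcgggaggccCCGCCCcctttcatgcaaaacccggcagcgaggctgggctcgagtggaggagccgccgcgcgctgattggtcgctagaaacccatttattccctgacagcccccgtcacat
KLF4: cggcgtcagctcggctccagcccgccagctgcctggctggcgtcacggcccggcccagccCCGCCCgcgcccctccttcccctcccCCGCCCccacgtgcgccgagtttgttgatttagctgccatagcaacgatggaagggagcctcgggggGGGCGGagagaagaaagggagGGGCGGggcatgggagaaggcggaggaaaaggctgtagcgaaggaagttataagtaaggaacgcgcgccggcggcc
KLF5: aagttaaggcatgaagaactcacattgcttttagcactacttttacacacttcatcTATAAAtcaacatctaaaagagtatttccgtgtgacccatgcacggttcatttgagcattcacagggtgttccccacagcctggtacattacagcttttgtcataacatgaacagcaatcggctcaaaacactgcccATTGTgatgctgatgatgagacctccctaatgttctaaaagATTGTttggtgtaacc

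The SALL3 stretch was 84.4% G and C with 49 CpG sites, 3 GC boxes and 1 TATA box. The SOX2 window was 68.8% G and C with 20 CpG sites and 1 GC box, and the KLF4 stretch 69.2% with 4 GC boxes. The KLF5 stretch was 40.8% G and C, had 3 CpG sites and no GC box, and held 1 TATA box and 2 SOX cores. The window of the second KLF5 start differed, with 70.8% G and C, 27 CpG sites, 2 GC boxes, no TATA box and no SOX core. It was not printed in full since 213 of its 250 bases are exonic. Over 35116 RefSeq windows of 250 bases the median was 58.0% G and C and 11 CpG sites, and 42.6% held a GC box, 10.7% a TATA box and 24.6% the SOX core. A match is a description of the letters and does not show binding.

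SALL3 and KLF5 were higher in TTC28-KO cells, and GATA6, SOX9 and KLF4 were lower. SOX2 and SOX4, both near the floor of detection, had at most 3 counts in a TTC28-KO library and at least 24 in a WT library. GATA2 and SALL4 did not pass, and FOXA2 had too few counts for a call. The test was edgeR's quasi-likelihood test over the 13079 genes that reached 1 FPKM in 2 or more libraries, with Benjamini-Hochberg adjustment and a threshold of 0.05. GATA6, GATA2, SOX9, KLF4, KLF5 and SALL3 passed that filter. Of these 6 factors, 2 were called higher and 3 lower, beside 25.1% of all tested genes called higher, 25.2% called lower and 50.3% called in either direction. Calls were common in this comparison, and the count of 5 among 6 is not a result about these factors. GATA6, SOX9 and SALL3, 3 of the 6, were called and changed by at least 2-fold, while 5.21% of tested genes were. The factors were chosen with earlier results of these data known, so that share is not a result about them either. No library of one group fell within the other for 5 of these factors, beside 75.5% of all tested genes.

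**Figure D1:**
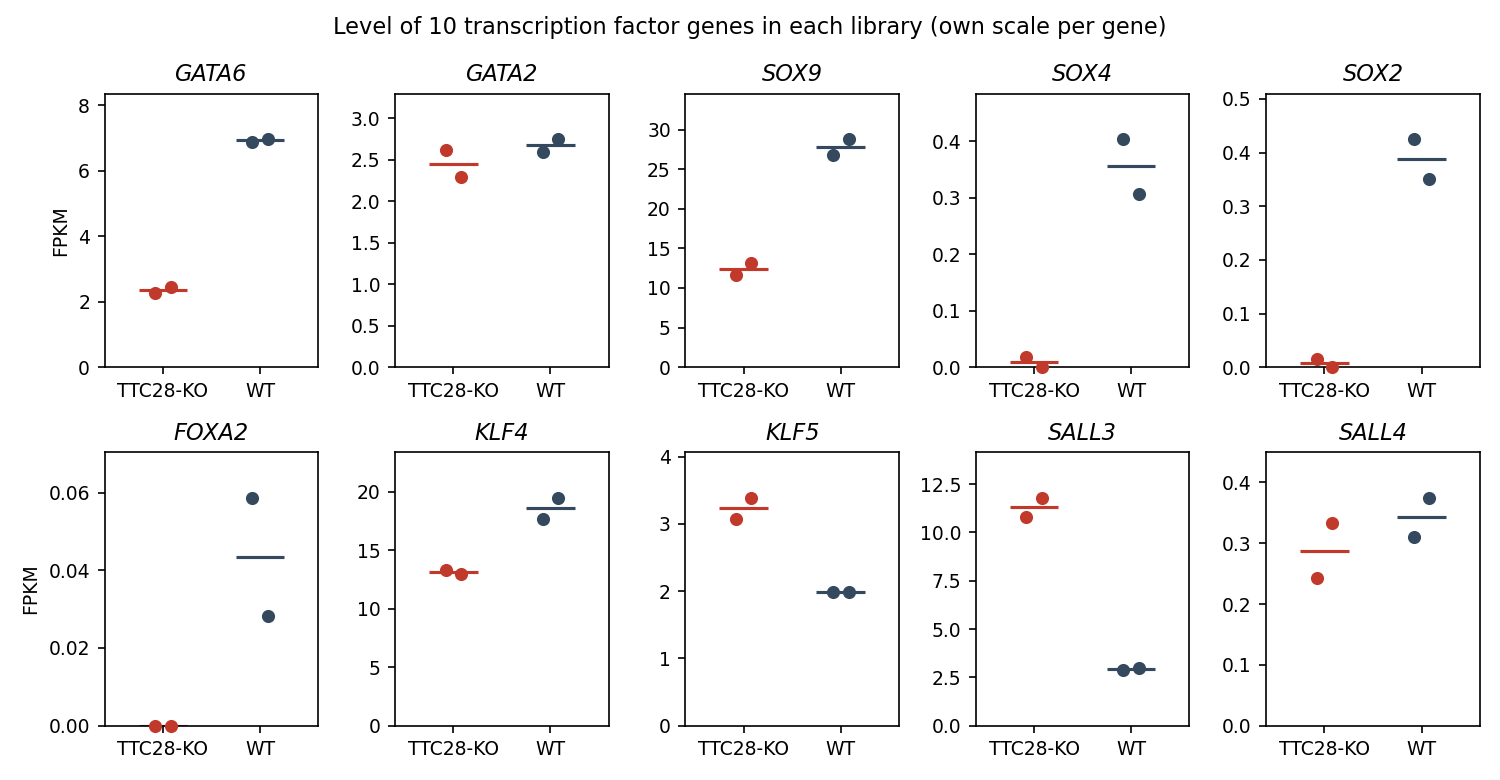
FPKM of the 10 factors in the 2 TTC28-KO libraries (left in each panel, red) and the 2 WT libraries (right, blue); points are libraries, lines are group means, and each panel has its own linear axis from 0. SALL3 and KLF5 lie higher in TTC28-KO, GATA6, SOX9, SOX4, SOX2, FOXA2 and KLF4 lie lower, and the points of GATA2 and SALL4 overlap between groups.

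In TTC28-KO cells the most abundant of the factors by FPKM were KLF4, SOX9 and SALL3, and the ranges of neighbours in that order overlapped. KLF5 followed, then GATA2 and GATA6, whose libraries overlapped. SALL4, SOX4, SOX2 and FOXA2 came last, each with under 1 FPKM in every library. In WT cells SOX9 stood first, followed by KLF4, GATA6, SALL3, GATA2 and KLF5, and neighbouring libraries in that order did not overlap. SOX2, SOX4 and SALL4 overlapped in WT and FOXA2 was again the lowest. SALL3 thus ranked above GATA6 in TTC28-KO and below it in WT, a statement on levels that carries no test between genes.

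GATA6 had 2.27 and 2.44 FPKM in the TTC28-KO libraries, against 6.88 and 6.96 FPKM in the WT libraries. Both TTC28-KO libraries lay below both WT libraries. The gene (ENSG00000141448, chr18:22169443-22202528, plus strand, hg38) was supported by 250 and 235 counts in TTC28-KO and by 711 and 748 counts in WT. Its level was 2.93-fold lower (2.36 ± 0.117 FPKM in TTC28-KO and 6.92 ± 0.0582 FPKM in WT, SD, n = 2 each; log2 fold change −1.55 ± 0.0996 SE, adjusted p = 8.43e-08, edgeR). Among 912 tested genes that the table assigns to a transcription factor family, this was the 5th largest fall. Ordered by FPKM among tested genes, GATA6 was at percentile 23.8 in TTC28-KO and 55.1 in WT.

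GATA2 had 2.62 and 2.29 FPKM in TTC28-KO, against 2.60 and 2.75 FPKM in WT. One TTC28-KO library lay between the WT libraries and the other below them, so the groups overlapped. The gene (ENSG00000179348, chr3:128479427-128493185, minus strand) rested on 325 and 249 counts in TTC28-KO and 304 and 334 in WT. The difference was −0.12 ± 0.118 on the log2 scale, with an approximate 95% interval of −0.35 to 0.11, and did not pass (edgeR, adjusted p = 0.41). By FPKM, GATA6 and GATA2 overlapped in TTC28-KO cells, while in WT cells both GATA6 libraries lay above both GATA2 libraries.

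SOX9, a factor of chondrocytes, of the developing lung's distal tips and of many epithelial progenitors, was the SOX member with the highest level. It had 11.7 and 13.1 FPKM in TTC28-KO, against 26.8 and 28.8 FPKM in WT, without overlap. Counts were 1287 and 1255 in TTC28-KO and 2763 and 3085 in WT. The level of SOX9 (ENSG00000125398, chr17:72121020-72126420, plus strand) was 2.24-fold lower (12.4 ± 0.936 FPKM in TTC28-KO and 27.8 ± 1.40 FPKM in WT, SD, n = 2 each; log2 fold change −1.16 ± 0.0729 SE, adjusted p = 7.24e-08, edgeR). This was the 17th largest fall among the tested transcription factors. Its percentile by FPKM was 72.1 in TTC28-KO and 87.8 in WT.

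SOX4, a factor of progenitor survival and of transforming growth factor responses, had 3 and 0 counts in the TTC28-KO libraries, against 62 and 49 in the WT libraries. These correspond to 0.0184 and 0 FPKM in TTC28-KO and 0.404 and 0.307 FPKM in WT, all below the filter. The summed, depth-scaled counts were 36.1-fold higher in WT than in TTC28-KO, with a 95% exact Clopper-Pearson interval of 12.0 to 178 that covers counting error only. Counts came from reads without molecular identifiers, so reads need not be independent molecules. SOX4 is ENSG00000124766, chr6:21592768-21598619, plus strand.

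SOX2, a pluripotency factor that also marks proximal airway progenitors, had 1 and 0 counts in the TTC28-KO libraries, against 28 and 24 in the WT libraries. The levels were 0.0143 and 0 FPKM in TTC28-KO and 0.425 and 0.351 FPKM in WT. Summed, depth-scaled counts were 50.8-fold higher in WT than in TTC28-KO, and the interval was wide, 8.72 to 2040. SOX2 is ENSG00000181449, chr3:181711924-181714436, plus strand.

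Both genes were tested with a lower filter, 0.1 FPKM in 2 or more libraries, which admitted 21208 genes. They passed it only through the WT libraries, so the calls with this filter describe the counts above and do not add to them. With that filter the edgeR log2 fold change was −5.08 ± 0.598 SE for SOX4 (adjusted p = 2.36e-05) and −5.37 ± 0.796 SE for SOX2 (adjusted p = 0.000155). Of all genes tested with this filter, 18.1% were called lower. With no filter the edgeR adjusted p was 4.03e-21 for SOX4 and 2.74e-10 for SOX2, from the same counts. The p-values thus changed with the genes admitted to the fit, and the smaller ones add nothing to the counts. These fitted values depend on how genes with almost no counts are treated, and with a pseudocount of 1 FPKM in limma the value was −0.43 for SOX4 and −0.46 for SOX2. In the authors' deposited table the log2 fold changes were −5.69 for SOX2 (adjusted p = 0.00226) and −5.21 for SOX4 (adjusted p = 1.95e-06).

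FOXA2 had 0 and 0 counts in TTC28-KO, against 4 and 2 counts in WT. The gene (ENSG00000125798, chr20:22581005-22585455, minus strand) was tested only with no filter and did not pass (edgeR, adjusted p = 0.203). At this depth FOXA2 was barely detectable in WT cells.

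KLF4, a factor of epithelial differentiation and cell cycle arrest as well as of reprogramming, had 13.3 and 13.0 FPKM in TTC28-KO, against 17.7 and 19.5 FPKM in WT. Both TTC28-KO libraries lay below both WT libraries. KLF4 (ENSG00000136826, chr9:107484852-107490482, minus strand; 1359 and 1162 counts in TTC28-KO, 1693 and 1946 in WT) was 1.41-fold lower, with group means of 13.2 ± 0.229 FPKM in TTC28-KO and 18.6 ± 1.32 FPKM in WT (SD, n = 2 each; log2 fold change −0.49 ± 0.0725 SE, adjusted p = 9.39e-05, edgeR). Of the 5 factors called with the main filter, KLF4 had the smallest change.

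KLF5, a factor of proliferating epithelial progenitors, had 3.07 and 3.39 FPKM in TTC28-KO, against 1.98 and 1.99 FPKM in WT, again without overlap. KLF5 (ENSG00000102554, chr13:73054976-73077542, plus strand; 333 and 322 counts in TTC28-KO, 202 and 211 in WT) was 1.63-fold higher, with means of 3.23 ± 0.224 FPKM in TTC28-KO and 1.99 ± 0.00668 FPKM in WT (SD, n = 2 each; log2 fold change 0.70 ± 0.123 SE, adjusted p = 0.000371, edgeR). The upstream stretches of KLF4 and KLF5 shown above thus belong to genes that moved in opposite directions, and by FPKM KLF4 stayed the more abundant of the 2 in every library. The KLF5 stretch is that of the first of its 2 starts, and which start these cells use was not tested.

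SALL3 had the largest rise of the 10 factors. It had 10.8 and 11.8 FPKM in TTC28-KO, against 2.89 and 3.0 FPKM in WT. Both TTC28-KO libraries stood well above both WT libraries. The gene (ENSG00000256463, chr18:78980275-79002677, plus strand) rested on 2235 and 2125 counts in TTC28-KO and 560 and 605 in WT. Means were 11.3 ± 0.651 FPKM in TTC28-KO and 2.95 ± 0.0801 FPKM in WT (SD, n = 2 each), 3.84-fold higher (log2 fold change 1.94 ± 0.0786 SE, adjusted p = 1.85e-09, edgeR). This was the 3rd largest rise among 912 tested transcription factors and the 72nd among all 13079 tested genes. By FPKM, SALL3 was at percentile 69.7 in TTC28-KO and 30.2 in WT.

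SALL4, the embryonic stem cell member of that family, had 0.242 and 0.333 FPKM in TTC28-KO, against 0.311 and 0.375 FPKM in WT. The groups overlapped. With 39 and 47 counts in TTC28-KO and 47 and 59 in WT, the log2 fold change was −0.27 ± 0.269 SE with an approximate 95% interval of −0.80 to 0.26 (0.1 FPKM filter, edgeR, adjusted p = 0.485). SALL4 (ENSG00000101115, chr20:51782331-51802520, minus strand) passed that filter in all 4 libraries. The interval of SALL4 leaves room for a fall of a size similar to that of KLF4, and does not reach the rise of SALL3.

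Of the 912 tested transcription factors, 224 were called higher and 245 lower (51.4%, beside 50.3% of all tested genes), and 40 (4.39%) were called and changed by at least 2-fold. In the zf-GATA family 3 of 8 tested genes were higher and 2 lower, in the HMG family of the SOX genes 8 of 27 were higher and 8 lower, and in the zf-C2H2 family of the KLF and SALL genes 83 of 401 were higher and 83 lower. SALL3 was 1 of 14 zf-C2H2 genes called and changed by at least 2-fold, GATA6 was the 1 such gene of its family, and SOX9 was 1 of 2 in the HMG family.

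**Figure D2:**
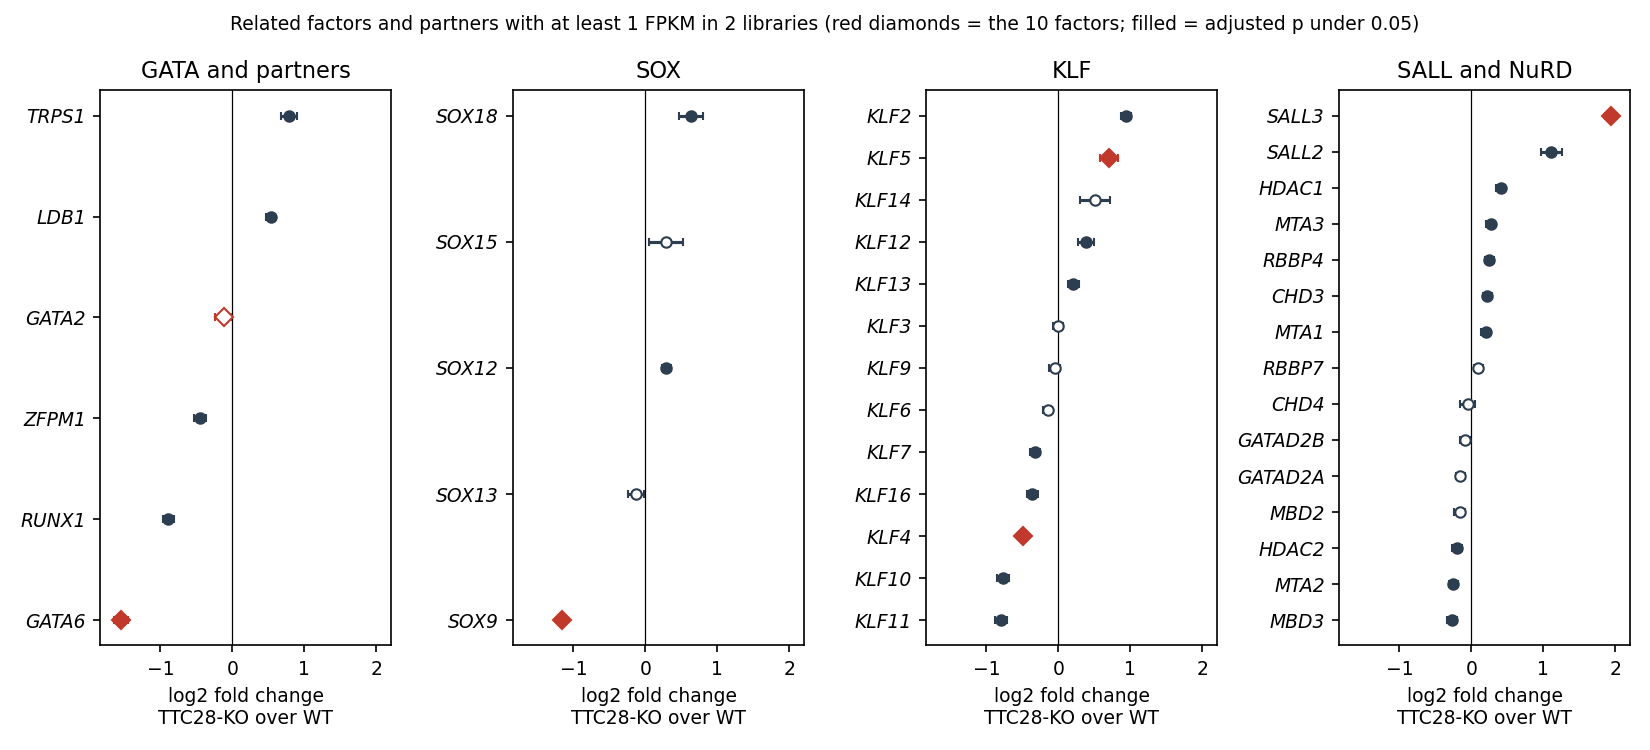
Log2 fold change, TTC28-KO over WT, of the factors and their relatives that passed the filter; bars are SE, red diamonds are the factors followed here, dark circles are other family members and partners, and filled symbols passed an adjusted p of 0.05. GATA6 and SOX9 lie at the low end of their panels and SALL3 at the high end of its own, while KLF5 and KLF4 lie on opposite sides of 0.

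GATA factors act with partners that bridge or repress them. Of 12 other GATA factors and partners, 4 passed the filter, 2 higher and 2 lower, and the median of their log2 fold changes was 0.04. The bridging adaptor LDB1 (0.53 ± 0.0636 SE) and the atypical GATA repressor TRPS1 (0.79 ± 0.108 SE) were higher, and RUNX1, a partner of GATA2 in blood cells (−0.89 ± 0.0793 SE), and the cofactor ZFPM1 (−0.45 ± 0.0852 SE) were lower. The median over all tested genes was near 0 in this comparison (−7.1e-05).

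Of 16 other SOX genes, 4 passed the filter, 2 of them were higher and none was lower, with a median of 0.29. SOX12, the relative of SOX4 in the SOXC group, had 33.3 and 30.6 FPKM in TTC28-KO, against 25.6 and 27.0 FPKM in WT (0.29 ± 0.0643 SE), above every SOX factor followed here in TTC28-KO cells. The endothelial factor SOX18 was also higher (0.63 ± 0.169 SE, adjusted p = 0.00699), and its adjusted p was 0.0689 without WT replicate 1. SOX1, SOX3, SOX11 and SOX14 had no count in any library.

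Of 15 other KLF genes, 11 passed the filter, 3 higher, 4 lower and 4 not called, with a median of −0.05. KLF2, a factor of naive pluripotency and of vessel walls, had 90.6 and 105 FPKM in TTC28-KO, against 49.8 and 52.1 FPKM in WT (0.94 ± 0.0746 SE), the same direction as KLF5. KLF10 (−0.77 ± 0.0801 SE), KLF11 (−0.80 ± 0.0835 SE) and KLF16 (−0.36 ± 0.0788 SE) fell as KLF4 did.

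Of 15 other SALL genes and NuRD subunits, 14 passed, 6 higher, 3 lower and 5 not called, with a median of 0.03. SALL2 had 1.99 and 2.09 FPKM in TTC28-KO, against 0.844 and 1.04 FPKM in WT (1.11 ± 0.145 SE, 2.16-fold higher), so SALL3 and SALL2 both rose while SALL1 had no count. The NuRD subunits moved little, among them the deacetylase HDAC1 (0.41 ± 0.0602 SE), MTA3 (0.27 ± 0.0656 SE) and MTA2 (−0.25 ± 0.0619 SE). Of 15 endoderm factors around FOXA2, HHEX alone passed the filter and was not called (−0.21 ± 0.122 SE, adjusted p = 0.163).

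These family counts depend on the scaling of libraries. With libraries scaled to an equal sum of FPKM values, a TPM scale chosen after the data were seen, the median of all tested genes moved by −0.17 on the log2 scale, and 1924 genes were called higher and 5304 lower, beside 3281 higher and 3300 lower with edgeR's own scaling. The followed factors were called as before on that scale, 2 higher and 3 lower. The KLF genes went to 1 higher and 6 lower, the SALL and NuRD genes to 2 higher and 6 lower, and the calls of SOX12 and MTA3 were lost. No called gene of these lists changed sign under the 4 alternative scalings run.

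Noncoding genes on the opposite strand lie beside or across 5 of the factors, SALL3, GATA6, SOX9, GATA2 and SOX4. The one at SOX4, AL512380.2, shares 168 exonic bases with it and had no count in any library. LINC01896, whose start lies 1201 bases from the GENCODE start of SALL3, shares no exonic base with it. The RefSeq start of SALL3 used for the stretch above, chr18:78979818, lies closer to LINC01896. It had 339 and 291 counts in TTC28-KO, against 126 and 98 in WT, and was 2.87-fold higher (log2 fold change 1.52 ± 0.155 SE, edgeR, adjusted p = 4.5e-06). SALL3 and LINC01896 therefore moved in the same direction, each without overlap between groups. Whether reads were assigned by strand is not stated, so reads from bases that 2 opposite genes share cannot be told apart.

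GATA6-AS1 starts 435 bases from GATA6 and shares 240 exonic bases with it, 6.08% of the exonic bases of GATA6. It had 17 and 17 counts in TTC28-KO, against 50 and 27 in WT, the direction of GATA6. Its call was weak (0.1 FPKM filter, edgeR, −1.16 ± 0.396 SE, adjusted p = 0.0367) and was lost without WT replicate 1, without either TTC28-KO library, with DESeq2 and in both limma fits, with adjusted p-values up to 0.431 over the alternatives. A further antisense gene, AC091588.3, shares 321 exonic bases with GATA6 and had 1 and 1 counts in TTC28-KO and 3 and 1 in WT.

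SOX9-AS1 shares no exonic base with SOX9. It had 17 and 7 counts in TTC28-KO, against 42 and 32 in WT, the direction of SOX9. SOX9-AS1 reached 0.1 FPKM only in the WT libraries. Its call with that filter (edgeR, −1.60 ± 0.416 SE, adjusted p = 0.00832) therefore describes these counts and does not add to them. The call was lost without TTC28-KO replicate 2 and in both limma fits on log2 FPKM. GATA2-AS1 had 187 and 165 counts in TTC28-KO, against 139 and 166 in WT, and like GATA2 did not pass (0.24 ± 0.150 SE, adjusted p = 0.197, edgeR). SOX2-OT, a long transcript that spans SOX2 on the same strand with no shared exonic base, had 8 and 3 counts in TTC28-KO and 3 and 13 in WT, with overlap between the groups.

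**Figure D3:**
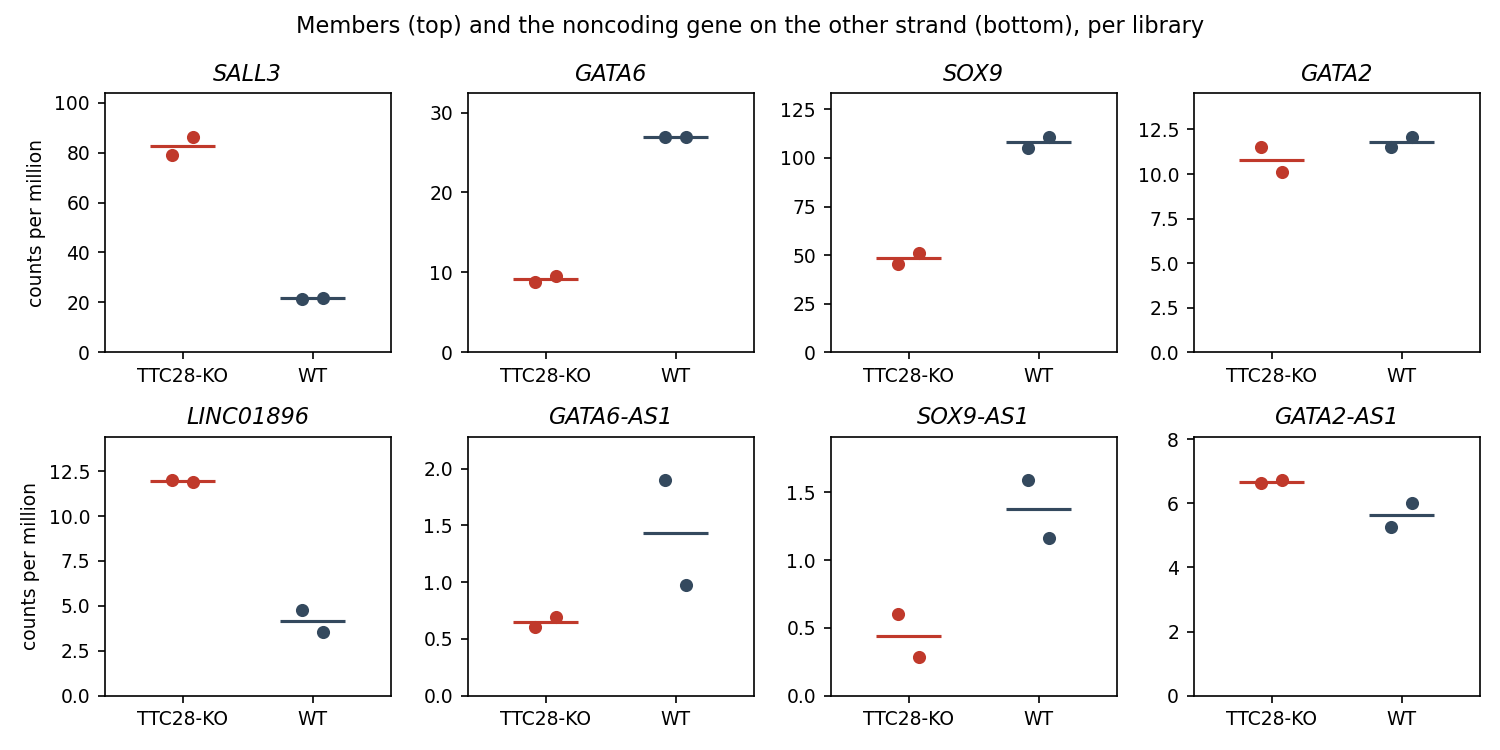
CPM (counts scaled to library size) of 4 factors (top) and of the noncoding gene on the opposite strand (bottom) in the 2 TTC28-KO libraries (left, red) and the 2 WT libraries (right, blue); points are libraries, lines are means, and axes are linear from 0. LINC01896 is higher with SALL3 in TTC28-KO, GATA6-AS1 and SOX9-AS1 are lower with GATA6 and SOX9, and GATA2 and GATA2-AS1 were not called.

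The factors were also set beside their chromosomal neighbours, the 25 tested genes on each side. Over all tested genes, 25.1% were called higher and 25.2% lower. Of the 50 neighbours of GATA6, 19 were higher and 12 lower, with a median of 0.15. The 50 neighbours of SOX9 had a median of 0.14 and those of KLF4 0.16, so all 3 of these factors fell where the median neighbour lay slightly above 0. SALL3 lies near the end of chromosome 18 and had 25 neighbours before it and 10 after it, with log2 fold changes between −1.91 and 1.90 and a median of 0.08, all below the 1.94 of SALL3. GATA6 and SALL3 are on the same chromosome and moved in opposite directions.

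The neighbours of KLF5 had a median of 0.25, 23 of them higher and 2 lower, which is the direction of KLF5 itself. Less that median, the difference of KLF5 was 0.45. The neighbours of GATA2 had a median of 0.22, of SOX2 0.20, of SOX4 0.03, of FOXA2 −0.01 and of SALL4 −0.16. SOX2 was thus lower in a stretch of genes of which 25 were higher and 6 lower.

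**Figure D4:**
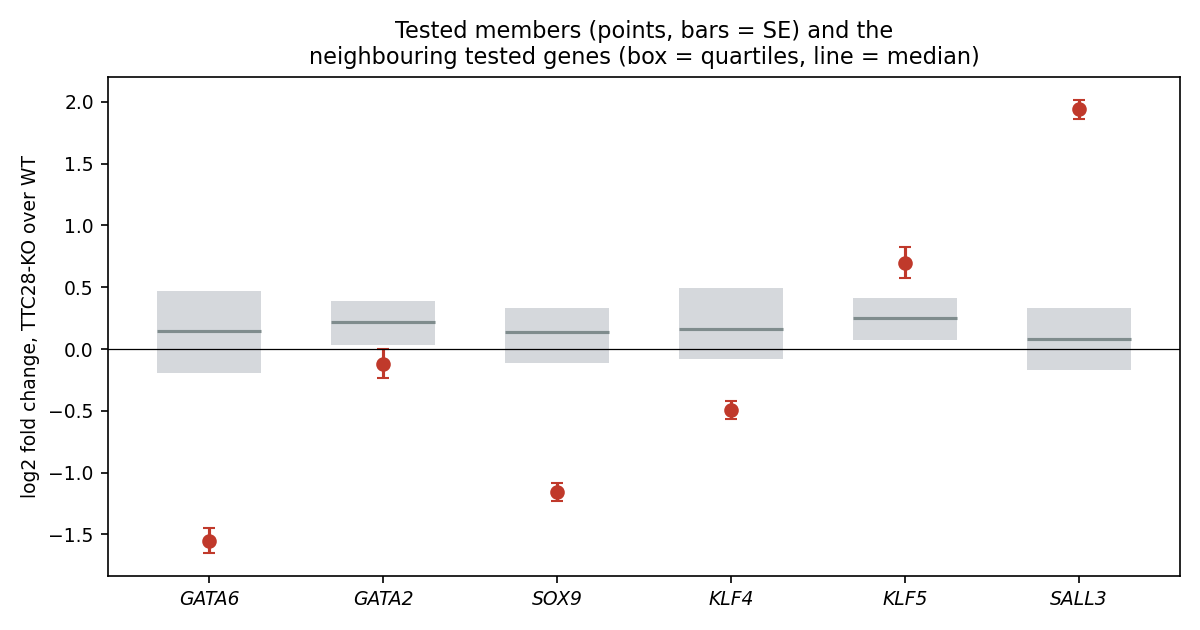
Log2 fold change, TTC28-KO over WT, of the 6 factors that passed the filter (red points, bars are SE) beside the quartiles (grey boxes) and median (grey line) of the tested genes on both sides of each on its chromosome, 50 for each factor and 35 for SALL3. GATA6, SOX9 and KLF4 lie below the boxes, GATA2 below its own box, and KLF5 and SALL3 above theirs.

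The described targets of the factors, taken mostly from other tissues, were for the larger part not expressed in these cells. None of 10 targets of SOX9, of 8 targets of SOX2 or of 13 targets of GATA factors passed the filter in H1299. The summed FPKM of the 10 SOX9 targets was 0.845 and 0.743 in TTC28-KO, against 0.607 and 0.679 in WT. Most of that sum was the collagen gene COL11A2, with 0.580 and 0.601 FPKM in TTC28-KO, against 0.385 and 0.436 FPKM in WT. COL11A2 was not called (0.1 FPKM filter, edgeR, adjusted p = 0.0518). The summed FPKM of the GATA targets was 0.791 and 0.920 in TTC28-KO, against 1.45 and 1.18 in WT. This sum joins genes that moved in opposite directions. NOS3 had 3 and 2 counts in TTC28-KO, against 22 and 13 in WT, while KIT had 24 and 19 in TTC28-KO, against 7 and 2 in WT.

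Of 6 targets of SOX4 and SOX11, 4 passed, and the guidance ligand SEMA3C (0.42 ± 0.0722 SE) and the Hippo pathway factor TEAD2 (0.49 ± 0.0860 SE) were higher. The histone methyltransferase EZH2 (−0.23 ± 0.0649 SE) was lower, a call lost without WT replicate 1, when its adjusted p was 0.0934. Of 11 targets of FOXA2 only CPT1A passed the filter, and it was not called (adjusted p = 0.0527). Of 11 targets of KLF4 and KLF5, 5 passed. The cell cycle inhibitor CDKN1A, which KLF4 activates, was higher (43.7 and 38.7 FPKM in TTC28-KO, against 28.6 and 28.9 FPKM in WT; 0.52 ± 0.0682 SE), as was the smooth muscle gene TAGLN (0.75 ± 0.175 SE), and cyclin D1, CCND1, was lower (−0.38 ± 0.0669 SE). TAGLN reached 1 FPKM only in the TTC28-KO libraries, so its call describes its levels and does not add to them. KLF4 fell while CDKN1A rose.

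Other pluripotency genes did not move as 1 group with SOX2 and KLF4. Of 21 listed, 5 passed, with 3 higher, 1 lower and a median of 0.46. MYC, which joins SOX2 and KLF4 among the reprogramming factors, had 44.4 and 47.5 FPKM in TTC28-KO, against 108 and 112 FPKM in WT (−1.26 ± 0.0644 SE, adjusted p = 1.1e-08, edgeR). KLF2, the surface sialomucin PODXL (0.94 ± 0.0884 SE) and the DNA methyltransferase DNMT3B (0.46 ± 0.0966 SE) were higher. NANOG, PRDM14, DPPA4, TDGF1, UTF1, MYCN and L1TD1 had no count in any library, and POU5F1 had 18 and 9 counts in TTC28-KO, against 11 and 11 in WT. Of 17 stem cell markers 5 passed and ITGA6, an integrin of basal cells, was the 1 called, higher by 0.72 ± 0.0664 SE.

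The lineage genes around the factors moved in both directions. In the lung list AGER (0.71 ± 0.140 SE), LAMP3 (0.52 ± 0.114 SE) and ABCA3 (0.20 ± 0.0616 SE) were higher, with the call of ABCA3 lost on the TPM scale, without WT replicate 1 and with total-count scaling. In the squamous and basal list KRT15 was higher (0.94 ± 0.0894 SE), and TP63, the basal factor, had 3 and 0 counts in TTC28-KO and 1 and 3 in WT. In the neuroendocrine list NKX2-2 was higher (1.82 ± 0.308 SE) and DLL3 lower (−0.55 ± 0.136 SE). NKX2-2 had 1.10 and 1.76 FPKM in TTC28-KO and 0.401 and 0.404 in WT. It passed the filter only through TTC28-KO, so its call describes these levels and does not add to them. Of 17 epithelial genes 4 passed, with KRT8 (0.74 ± 0.0657 SE), CLDN4 (0.98 ± 0.154 SE) and KRT18 (0.23 ± 0.0647 SE) higher and KRT7 (−1.58 ± 0.175 SE) lower, and the call of KRT18 was lost on the TPM scale and without WT replicate 2. CLDN4 reached 1 FPKM only in the TTC28-KO libraries and KRT7 only in the WT libraries. The calls of CLDN4 and KRT7 therefore describe their levels and do not add to them. CDH1 had 1 count in the 4 libraries together. Of 12 mesenchymal genes 8 passed, with TGFBI (−1.36 ± 0.0872 SE), FN1 (−1.34 ± 0.0895 SE) and TWIST1 (−0.70 ± 0.128 SE) lower and CDH2 (0.31 ± 0.0722 SE), ZEB2 and VIM higher. These 3 rises were lost on the TPM scale, those of VIM and ZEB2 also with total-count scaling and without WT replicate 2, and that of ZEB2 also without TTC28-KO replicate 2 and in both limma fits. Markers of other cell types were near 0, since none of 8 haematopoietic, 7 endothelial or 7 fibroblast genes passed the filter. Summed, these came to 0.321 and 0.324 FPKM for haematopoietic genes in TTC28-KO and 0.249 and 0.280 in WT, 0.475 and 0.434 for endothelial genes in TTC28-KO and 0.227 and 0.215 in WT, and 0.632 and 0.707 for fibroblast genes in TTC28-KO and 0.239 and 0.376 in WT. Their part in the results was not tested.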

How the data were processed

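RNA of 2 TTC28-KO and 2 WT libraries was prepared with a TruSeq kit, per the labels, and the submitters' processing notes name HISAT2 2.0.5 and hg38. How reads were assigned to genes, whether by strand, and which test the authors ran were not found in the headers or labels. The deposited table holds raw counts per gene, per the file headers, and the authors also deposited FPKM values, which are used here as levels. The deposited mean normalized signal per group, log2 fold change and p-value come from the authors per the file headers, and were used for no test. Groups and replicate numbers come from the labels.

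Counts were tested with edgeR 4.0.16 (R 4.3.3), quasi-likelihood, TMM factors of 0.977 to 1.02, no covariates, two-sided, for genes that reached 1 FPKM in 2 or more libraries, with Benjamini-Hochberg adjustment over 13079 genes and a threshold of 0.05. SOX2, SOX4 and SALL4 were tested with a 0.1 FPKM filter and FOXA2 with none. The common biological coefficient of variation was 0.0566 and the median SE 0.0886. No exact permutation test was run, since with 2 libraries a group its smallest p is 0.333. Replicates differed beyond sampling noise (chi-square per degree of freedom 7.79 in TTC28-KO and 3.77 in WT) and entered the fits as separate libraries. The counting intervals of SOX4 and SOX2 sum the libraries of a group and leave this spread out. Counting intervals are exact at 95% and the floor for a count of 0 is 3 counts. The fitting was also run on counts simulated with the common dispersion of these data, which checks the code and not the calls. Alternatives used DESeq2 1.42.0 and limma 3.58.1, other scalings and filters, a replicate block and each library left out. All 58735 identifiers are in GENCODE release 29, where the coordinates of the 10 factors are identical. Sequences come from RefSeq tables of GRCh38.p14.

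The factors and all gene lists were chosen with earlier results of these data known. Named genes are the 10 factors, the 4 called genes with the smallest p in each list, listed genes at 0 in every library, TTC28, and antisense or overlapping genes of the factors. HHEX, CPT1A, ETV5, COL11A2, NOS3, KIT, ZEB2, VIM, POU5F1, NKX2-1, TP63 and CDH1 were named beside them after their values were seen. Some listed genes are not reported here.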

Additional observations from a re-analysis of the deposited data

How the results depend on the processing

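GATA6, SOX9, KLF4, KLF5 and SALL3 kept their direction and their call, and GATA2 and SALL4 stayed uncalled, in every alternative in which each was tested. Log2 fold changes ranged from −1.72 to −1.24 for GATA6, −1.33 to −1.08 for SOX9, −0.66 to −0.43 for KLF4, 0.45 to 0.78 for KLF5, 1.64 to 2.01 for SALL3, −0.34 to −0.04 for GATA2 and −0.51 to −0.05 for SALL4. SOX2 ranged from −7.67 to −0.46 (adjusted p 2.74e-10 to 0.0168) and SOX4 from −8.76 to −0.43 (adjusted p 4.03e-21 to 0.0221), with the small end from limma with a pseudocount of 1 FPKM, which shrinks low genes. Less the median of neighbouring genes, as values with no test, GATA6 was −1.70, GATA2 −0.34, SOX9 −1.31, KLF4 −0.66 and KLF5 0.45. A filter of 5 FPKM left 1 factor called higher, since KLF5 was not tested, with 2169 genes higher and 2177 lower, as fewer genes were tested. With a 0.1 FPKM filter and with no filter, 5 factors were called lower, SOX2 and SOX4 being added. These 2 passed the 0.1 FPKM filter only through the WT libraries, so their calls do not add to their counts. Of all 21208 genes tested with that filter, 18.1% were called lower. On the TPM scale 1924 genes were higher and 5304 lower, and the same numbers of factors were called. Of 672 counts over the lists and alternatives, 596 stayed within 1.5 times of the main count and 76 moved, most often with other filters, and no named gene reversed. The haematopoietic, endothelial and fibroblast lists and the targets of SOX9, SOX2 and GATA factors had no tested gene. Their counts of 0 could not move while the 1 FPKM filter was kept, so part of the 596 was fixed in advance.

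Replicate numbers did not pair the libraries (correlation of deviations across genes −0.0014, from 2 pairs). With a replicate block 3515 genes were called higher and 3593 lower, and the factors stayed at 2 higher and 3 lower. SOX2, SOX4 and FOXA2 are limited by depth in TTC28-KO, where 0 to 3 counts were seen.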

Other observations

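Several weakly expressed partners and lineage genes from the same lists, chosen here after their values were seen, also differed between the groups in counts. Fitted values are given, from edgeR with the 0.1 FPKM filter, only for genes that reached it in every library. The blood factor LYL1 had 1 and 1 counts in TTC28-KO, against 28 and 24 in WT. LMO2, a partner of GATA factors in blood progenitors, had 66 and 49 counts in TTC28-KO, against 20 and 18 in WT (log2 fold change 1.61 ± 0.301 SE, adjusted p = 0.000941). GATA4, the relative of GATA6 in endoderm, had 0 and 0 counts in TTC28-KO, against 1 and 11 in WT.

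The mesenchymal homeobox factor PRRX1 had 5 and 4 counts in TTC28-KO, against 211 and 200 in WT. The retinaldehyde dehydrogenase ALDH1A3 had 2 and 3 counts in TTC28-KO, against 44 and 63 in WT. The neuroendocrine vesicle gene SYP had 56 and 39 counts in TTC28-KO, against 136 and 154 in WT (−1.59 ± 0.200 SE, adjusted p = 4.14e-05). The endothelial receptor KDR went the other way, with 38 and 31 counts in TTC28-KO, against 1 and 6 in WT. LYL1, PRRX1, ALDH1A3 and KDR reached 0.1 FPKM only in the group in which they are higher, and GATA4 in no library, so their counts are given with no test.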
